A study of Mus musculus with 16 samples.

Results

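The corticotropin-releasing hormone (CRH) system was followed in mouse hippocampal cultures through the 4 genes Crh, Crhbp, Crhr1 and Crhr2, out of 55385 genes in the tables. They were taken by name, and the system was chosen by the measured knockdown differences of Crh, which was higher, and Crhbp, which was lower, after knockdown of the DNA methyltransferase isoform Dnmt3a1. Those differences are given below as a description and were not tested. All 4 passed the filter on low counts, along with 17222 genes in all. RNA was sequenced from 16 libraries of primary hippocampal neurons of newborn C57Bl/6N mice, 4 in each of 4 groups, and the study describes them as independent neuronal preparations. Recombinant adeno-associated virus carried a short hairpin RNA under the U6 promoter and GFP under a chicken β-actin promoter. The hairpin was either a control sequence (shControl) or directed against Dnmt3a1 (shDnmt3a1). Each of them was sampled in baseline, at 0 h, and after 4 h of bicuculline, a blocker of GABA-A receptors that drives synchronous firing in such cultures. All groups carried virus and GFP, and the only knockdown construct sequenced was a single shRNA, so in these libraries an effect of that sequence on other transcripts cannot be told apart from loss of Dnmt3a1.

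CRH is a secreted peptide best known as the hypothalamic trigger of the pituitary stress response, but hippocampal interneurons make it as well and release it onto neighbouring neurons. It acts through CRHR1 and CRHR2, receptors that couple mainly to the stimulatory G protein and cyclic AMP. The binding protein encoded by Crhbp is a secreted glycoprotein that holds the peptide away from the receptors. In cortex and hippocampus Crhbp is transcribed largely in GABAergic interneurons, many of them positive for somatostatin.

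Crh (ENSMUSG00000049796.4) lies on the minus strand of chromosome 3 from 19693401 to 19695396 on GRCm38 and has 1 annotated transcript of 1320 nt in 2 exons. Exon 2 holds the whole peptide that the receptors bind. The coding stretch at chr3:19693913-19694050, minus strand, is shown because every Crh value below counts reads of the transcript that encodes it. Capitals mark the 41 codons of the mature peptide at the end of a precursor of 187 residues, after the codons of a pair of basic residues and before the codons of glycine, lysine and the stop.
Crh coding stretch: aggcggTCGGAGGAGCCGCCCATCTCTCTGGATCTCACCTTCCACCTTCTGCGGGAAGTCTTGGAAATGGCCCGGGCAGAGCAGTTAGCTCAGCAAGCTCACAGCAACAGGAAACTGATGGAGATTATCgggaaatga

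Crhbp (ENSMUSG00000021680.8) spans 95431371 to 95444924 of chromosome 13, on the minus strand, with 2 transcripts in the annotation. Crhr1 (ENSMUSG00000018634.10) spans 104132855 to 104175523 of chromosome 11, on the plus strand, with 1 transcript. Crhr2 (ENSMUSG00000003476.16) spans 55090049 to 55133016 of chromosome 6, on the minus strand, with 9 transcripts. No member overlaps another annotated gene. Promoters, from 250 bases before to 50 bases after the RefSeq start on GRCm38.p6, matched 3 of the 4 members, Crhbp, Crhr1 and Crhr2. CG dinucleotides, the usual substrate of DNA methyltransferases, are in capitals in the promoters of the binding protein and of the main hippocampal receptor.
Crhbp promoter, chr13:95444782-95445081, minus strand: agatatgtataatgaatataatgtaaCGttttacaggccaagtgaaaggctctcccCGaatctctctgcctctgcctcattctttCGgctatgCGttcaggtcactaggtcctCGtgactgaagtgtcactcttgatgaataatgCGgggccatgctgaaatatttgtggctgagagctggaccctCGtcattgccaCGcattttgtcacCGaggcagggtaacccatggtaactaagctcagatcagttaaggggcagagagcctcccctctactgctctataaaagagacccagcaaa
Crhr1 promoter, chr11:104132531-104132830, plus strand: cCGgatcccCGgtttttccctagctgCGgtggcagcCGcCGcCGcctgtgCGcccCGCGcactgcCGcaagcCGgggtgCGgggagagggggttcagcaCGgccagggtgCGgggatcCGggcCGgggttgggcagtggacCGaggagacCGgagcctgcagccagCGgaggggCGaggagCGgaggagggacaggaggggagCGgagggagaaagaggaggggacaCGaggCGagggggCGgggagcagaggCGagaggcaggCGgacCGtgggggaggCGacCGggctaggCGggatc

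The Crhbp window held 9 CG dinucleotides, more than 54.2% of the 32851 promoters in the RefSeq table, whose median is 7. The Crhr1 window held 31, more than 89.4% of promoters. The Crhr2 window held 5. Methylation was not measured in these libraries, so the counts describe sequence and nothing else. The full cAMP response element TGACGTCA, the AP-1 site TGAGTCA, the EGR site GCGTGGGCG and the glucocorticoid receptor motif AGAACA were searched on both strands, and none of them was found in the 3 windows. They occur in 1.79%, 5.20%, 0.612% and 19.0% of all promoters. The 5 letters TGACG, which also form the core of the full cAMP element, occurred once, as CGTCA from 64 to 60 bases before the RefSeq start of Crhbp. The Crhbp span given above, from another annotation (GENCODE), begins upstream of that start and holds these letters. These letters are found in 20.8% of promoters.

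Depth was alike over the 16 libraries, which held from 28912697 to 29586355 estimated counts, and libraries of a group always differed by more than counting noise (chi-square statistics of 7.88 to 44.5 times their degrees of freedom). Dnmt3a fell in the shDnmt3a1 groups, from 312 ± 13.8 to 44.5 ± 3.66 CPM (counts relative to the scaled library size, mean ± SD, n = 4) in baseline and from 327 ± 11.8 to 45.3 ± 1.72 with bicuculline. These Dnmt3a counts are for the whole gene and do not separate Dnmt3a1 from the other isoform, Dnmt3a2. Neuronal markers were abundant, with Slc17a7 from 833 to 1243 CPM and Gad1 from 441 to 1268. Astrocyte markers were present as well, with Gfap from 53.1 to 169.9 CPM and Aqp4 from 26.2 to 76.9. In the other lists Mbp ran from 13.3 to 31.9 CPM, Col1a1 from 6.12 to 18.2 and Csf1r from 1.22 to 3.98, while Sox10 and Cldn5 were at 0 in 11 libraries each and Cx3cr1 in 2. Levels in bulk RNA cannot distinguish fewer cells of a type from less RNA per cell.

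The members differed widely in abundance. On the TPM scale, the relative number of transcripts after allowing for their length, Crhbp stood highest in shControl baseline at 61.7 ± 7.04 (SD, n = 4). Crhr1 followed at 11.5 ± 2.40 TPM, and Crh at 1.14 ± 0.308, close to Crhr2. Crhbp was above 82.4% of the tested genes in this group, Crhr1 above 48.7%, Crh above 17.8% and Crhr2 above 16.2%. The ranges of Crh, 0.679 to 1.32 TPM, and of Crhr2, 0.904 to 1.10 TPM, overlapped, so these neighbours in the order did not differ beyond their spread. The other genes that encode CRH receptor ligands were barely present. Ucn (urocortin) had 1 count in 2 libraries and 0 in the other 14. Ucn2 had from 0 to 3.75 counts in a library and Ucn3 from 0 to 2, and all 3 genes were removed by the filter. Against the library totals, without TMM scaling, 3 counts correspond to 0.101 to 0.104 CPM at these depths. Levels under 3 counts were taken as too low to read.

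Crh, the ligand, rose with bicuculline in both kinds of culture. In shControl baseline its normalised level, in CPM with library sizes scaled by the trimmed mean of M values (TMM), was 0.395, 0.710, 0.639 and 0.713 in replicates 1 to 4. With bicuculline it was 2.08, 2.41, 2.37 and 1.93. Every bicuculline library was above every baseline library, and the rise was 1.83 on the log2 scale (SE 0.24), or 3.55-fold (edgeR, adjusted p = 9.24e-06). The bicuculline libraries of shControl also enter the knockdown difference on which Crh was chosen, so this test is not independent of that choice. Bicuculline changed many genes, with 21.9% of tested genes called in shControl, a call being an adjusted p under 0.05 with an absolute log2 fold change over 0.5.

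In shDnmt3a1 cultures Crh stood at 0.597, 0.719, 0.667 and 0.572 CPM in baseline. After 4 h of bicuculline it stood at 8.27, 6.22, 4.06 and 4.43 CPM, again with no overlap. The rise was 3.16 on the log2 scale (SE 0.23), or 8.91-fold (adjusted p = 6.71e-09), in a comparison where 25.8% of tested genes were called. The bicuculline libraries of this test also enter the knockdown difference on which Crh was chosen, so the test is not independent of that choice. In these libraries the level was uneven, and replicate 1, the highest for Crh, also had the highest share of mitochondrial counts of all libraries, 6.60%. Replicate 1 had the highest share in the other groups too, without the highest Crh there. Those shares were 4.75% in shControl baseline, 5.86% in shControl with bicuculline and 5.99% in shDnmt3a1 baseline. The part of the mitochondrial share in the result was not tested.

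Between the shRNAs Crh was close in baseline and apart with bicuculline. Baseline means were 0.614 ± 0.150 CPM in shControl and 0.639 ± 0.0668 in shDnmt3a1 (SD, n = 4), with overlapping libraries and a fitted log2 difference of 0.06 (SE 0.28). With bicuculline the means were 2.20 ± 0.232 and 5.75 ± 1.93 CPM, and the lowest shDnmt3a1 library, at 4.06, was above the highest shControl library, at 2.41. The fitted log2 difference was 1.38 (SE 0.20). In the 2 knockdown comparisons 5.83% (baseline) and 5.89% (bicuculline) of tested genes were called, and nothing about Crh is read from these shares because this contrast chose it. On counts, the precision in baseline is limited, since 12 to 23 estimated counts per library lie behind each value, against 55 to 69 in shControl with bicuculline and 114 to 209 in shDnmt3a1 with bicuculline.

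Whether the response itself differed between the shRNAs was tested by the interaction term. For Crh this was 1.33 on the log2 scale (SE 0.34), with an unadjusted p of 0.00124 in edgeR's quasi-likelihood test and an adjusted p of 0.485. The term contains the knockdown difference that chose the gene, so it is not independent of the choice. Over 25 alternative fits the adjusted p for Crh ran from 0.205 to 0.991 and never passed. The interaction called 0 genes in all (0.0% of those tested), with 852 at an unadjusted p under 0.05 and 18 called by DESeq2. The difference between the responses of Crh thus did not pass the test over all genes.

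**Figure D1:**
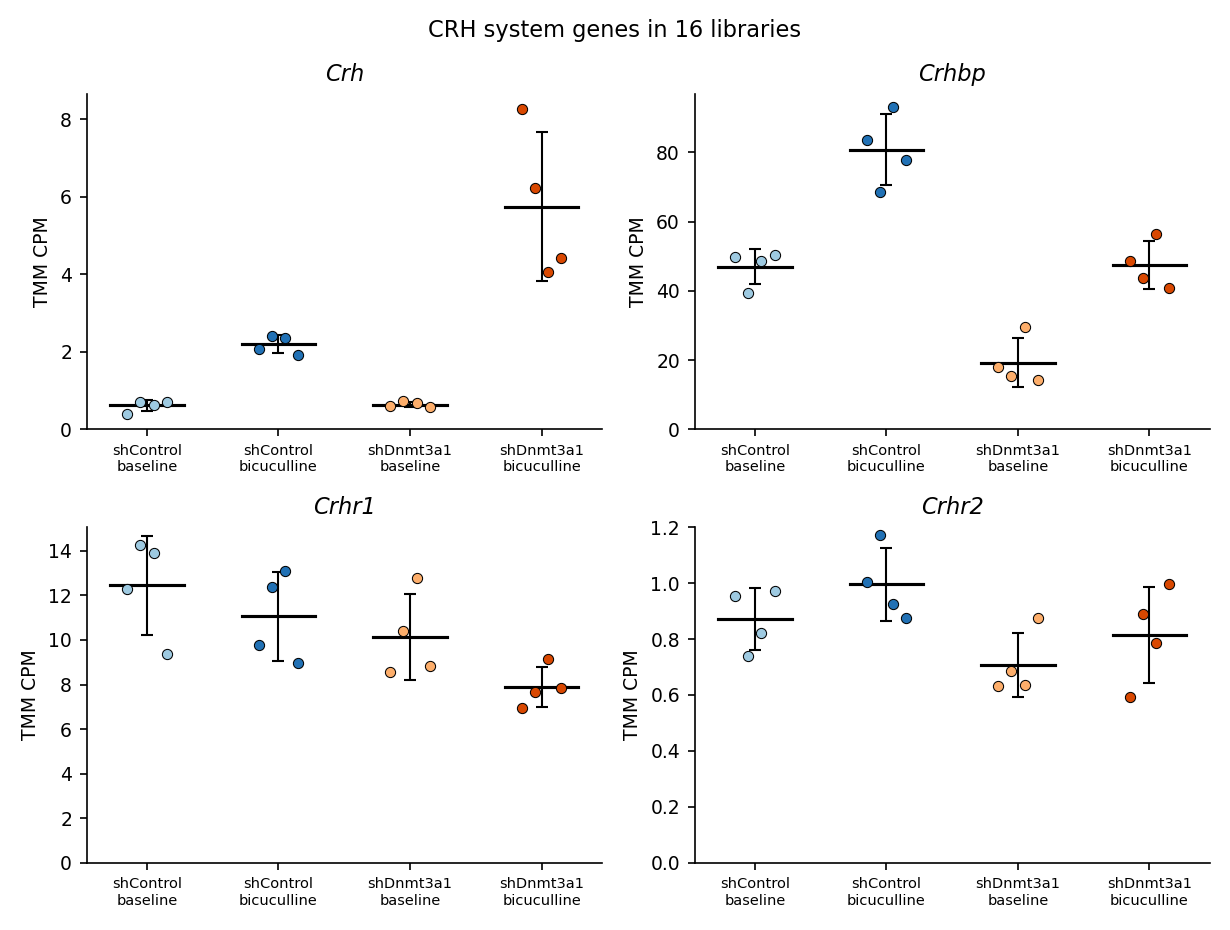
Normalised level (TMM CPM, each axis from 0) of Crh, Crhbp, Crhr1 and Crhr2 in each of 16 libraries. Points are replicates 1 to 4 from left to right, lines are group means and bars are SDs (n = 4). Crh is from 4.06 to 8.27 CPM in the 4 shDnmt3a1 bicuculline libraries and at most 2.41 CPM in the other 12, while Crhbp is lowest in shDnmt3a1 baseline.

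Crhbp, the binding protein, also rose with bicuculline in both kinds of culture. In shControl baseline the 4 libraries gave 49.8, 39.4, 48.6 and 50.3 CPM. With bicuculline they gave 83.5, 68.7, 93.0 and 77.9 CPM. The groups did not overlap, and Crhbp rose by 0.78 on the log2 scale (SE 0.17), or 1.72-fold (adjusted p = 0.00142). The libraries of this test also enter the knockdown differences on which Crhbp was chosen, so it is not independent of that choice.

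After knockdown the baseline libraries held 17.9, 15.4, 29.6 and 14.2 CPM of Crhbp. With bicuculline they held 48.6, 43.6, 56.6 and 40.8 CPM. Crhbp rose there by 1.30 on the log2 scale (SE 0.18), or 2.46-fold (adjusted p = 1.21e-05), and again no library of one group reached the other. The baseline libraries of this test also enter the knockdown difference on which Crhbp was chosen, so the test is not independent of that choice. Replicate 3 was the highest shDnmt3a1 baseline library for Crhbp and had a mitochondrial share of 2.73%, the lowest of the 16 libraries, against 4.53% to 5.99% in the other 3 of its group. Replicate 3 had the lowest share in every group. Its Crhbp was the highest with bicuculline in both kinds of culture, but not in shControl baseline. The part of the mitochondrial share in the level was not tested. Without replicate 3 of shDnmt3a1 baseline the rise was 1.58 on the log2 scale.

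Crhbp was lower after knockdown in both states. Means were 47.0 ± 5.13 CPM in shControl and 19.3 ± 7.03 in shDnmt3a1 baseline (SD, n = 4), a fitted log2 difference of -1.29 (SE 0.18). With bicuculline they were 80.8 ± 10.2 and 47.4 ± 6.92 CPM, a difference of -0.77 (SE 0.17). Neither pair of groups overlapped. The mean of shDnmt3a1 with bicuculline was close to that of shControl baseline, and their ranges, 40.8 to 56.6 and 39.4 to 50.3 CPM, overlapped. The interaction term of Crhbp was 0.52 (SE 0.25, unadjusted p = 0.0532, adjusted p = 0.99997 in edgeR), which did not pass and, as for Crh, contains the differences that chose the gene.

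Because Crhbp is an interneuron gene, its values are given beside the GABAergic markers. The summed level of the 9 markers had a median of 2397 CPM in shControl baseline (2210 to 2638) and 3364 with bicuculline (3214 to 3587). In shDnmt3a1 it was 2168 CPM (2029 to 2333) and 3087 (2842 to 3401). In both kinds of culture 4 of the 9 markers were called higher with bicuculline, where 21.9% and 25.8% of all tested genes were called in either direction, among them Gad1 and Gad2, which make GABA, and the transcription factor gene Dlx1. With library sizes alone in place of TMM, none of these 3 was called in shControl. There 1 other marker of the list was still called higher, and in shDnmt3a1 all 3 were still called.

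Relative to that sum, an alternative chosen after the data were seen, the rise of Crhbp was smaller. In shControl Crhbp was 1.95% ± 0.212 of the summed marker CPM in baseline and 2.39% ± 0.336 with bicuculline, a log2 difference of 0.29 (exact two-sided permutation test, n = 4, p = 0.0571). In shDnmt3a1 it was 0.894% ± 0.357 and 1.54% ± 0.318, a log2 difference of 0.84 (exact permutation test, n = 4, p = 0.0571). Neither passed this exact test, which differs from the edgeR fit and with 4 against 4 passes only when the groups do not overlap. In shControl, baseline replicate 3 (2.20%) lay above bicuculline replicate 2 (2.14%). In shDnmt3a1, baseline replicate 3 (1.42%) lay above bicuculline replicate 4 (1.24%). The share was higher with bicuculline in all 4 same-numbered pairs in both kinds of culture. Crh on the same scale had rises of 1.38 and 2.60 (exact permutation tests, n = 4, p = 0.0286 each, the smallest that 4 against 4 allows). The libraries of these tests also enter the knockdown differences that chose both genes, so the tests are not independent of that choice. The knockdown difference of Crhbp relative to the markers was -1.19 in baseline and -0.65 with bicuculline. Among the 9 markers Dlx5, a transcription factor gene of interneuron precursors, was the only one called between the shRNAs, at -0.98 and -1.03 on the log2 scale (adjusted p = 2.64e-05 and 1.58e-05), with a median over the list of -0.13 and -0.12.

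The receptor genes moved less. Crhr1, which encodes the high-affinity CRH receptor of the forebrain, had 12.3, 14.3, 13.9 and 9.37 CPM in shControl baseline and 9.79, 12.4, 13.1 and 8.98 CPM with bicuculline. In shDnmt3a1 it had 8.57, 10.4, 12.8 and 8.82 CPM, and 6.93, 7.66, 9.12 and 7.87 CPM with bicuculline. The groups overlapped in each comparison. The log2 change with bicuculline was -0.17 (SE 0.15, adjusted p = 0.411) in shControl and -0.36 (SE 0.16, adjusted p = 0.0748) in shDnmt3a1, and neither was called. In shDnmt3a1 it was called with library sizes alone (-0.51, adjusted p = 0.0293) and on log2(TPM + 0.1) with limma (-0.54, adjusted p = 0.0397). The fitted knockdown difference was -0.30 (SE 0.16) in baseline and -0.49 (SE 0.16) with bicuculline.

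Crhr2, which encodes the receptor that prefers urocortins, was near the lower end of what these libraries resolve, at 15 to 33 counts in each. Its level ran from 0.741 to 0.973 CPM in shControl baseline and from 0.877 to 1.17 with bicuculline. In shDnmt3a1 it ran from 0.633 to 0.875 CPM and from 0.594 to 0.997. The groups overlapped except for shDnmt3a1 baseline and shControl with bicuculline, which are no pair compared here. The log2 change with bicuculline was 0.19 (SE 0.19, adjusted p = 0.470) in shControl and 0.21 (SE 0.20, adjusted p = 0.449) in shDnmt3a1, and on TPM scales it was slightly below 0. Neither was called. Log2 changes up to 0.5 lie under the threshold for a call, so changes larger than these errors could also be missed at this depth.

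**Figure D2:**
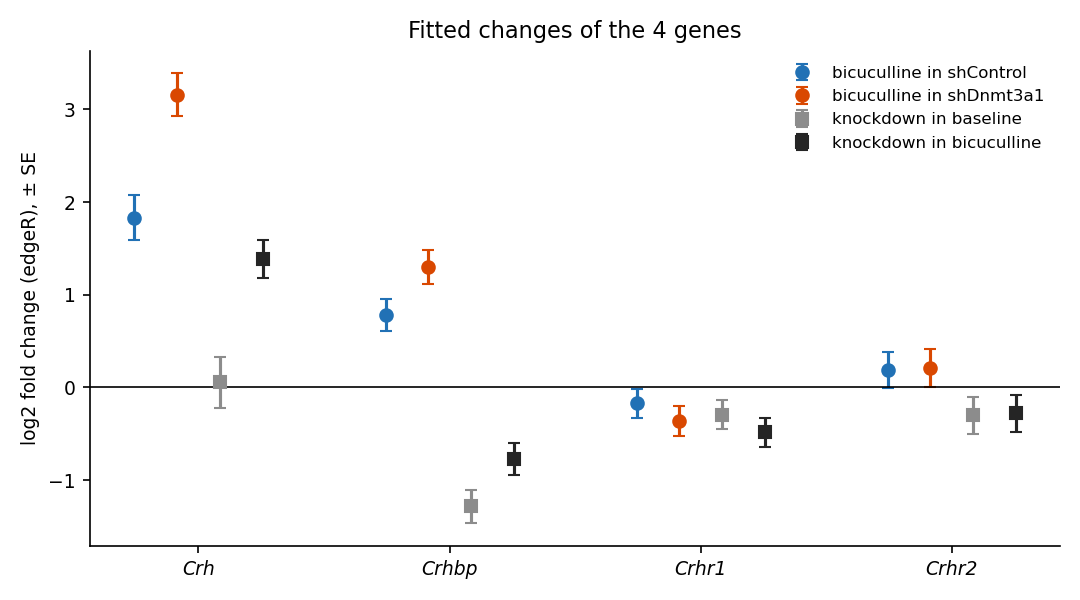
Fitted log2 fold changes (edgeR, y axis) of the 4 genes with standard errors. Circles show bicuculline against baseline in shControl and shDnmt3a1, and squares show shDnmt3a1 against shControl in baseline and with bicuculline, which are descriptions. For Crh the bicuculline values are 1.83 and 3.16, and for Crhbp the knockdown values are -1.29 and -0.77, while both receptors lie between -0.49 and 0.21.

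The ligand and its binding protein were also set against each other on the TPM scale. In shControl baseline Crh was 1.11%, 2.53%, 1.84% and 1.99% of Crhbp. With bicuculline it was 3.50%, 4.93%, 3.57% and 3.48%. The log2 ratio, with 0.1 TPM added to each, rose by 1.01 (exact two-sided permutation test, n = 4, p = 0.0286, the smallest possible), and every bicuculline library was above every baseline library. These shControl libraries enter the differences on which both genes were chosen.

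In shDnmt3a1 the ratio was 4.68%, 6.51%, 3.17% and 5.62% in baseline and 23.8%, 20.1%, 10.1% and 15.3% with bicuculline. It rose by 1.67 on the log2 scale (exact permutation test, n = 4, p = 0.0286), in libraries that also enter the differences on which both genes were chosen. Replicate 3 gave the lowest ratio in both states. Between the shRNAs the log2 ratio was 1.42 higher after knockdown in baseline and 2.08 higher with bicuculline. These last values rest on the contrast that chose the genes and were not tested. In shDnmt3a1 with bicuculline Crh reached 8.41 ± 2.33 TPM (SD, n = 4), where Crhr1 had 5.87 ± 1.07 and the ranges, 6.53 to 11.4 and 4.75 to 7.31, met. In shControl with bicuculline Crh, at 3.09 to 3.98 TPM, was below Crhr1, at 7.22 to 10.95.

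**Figure D3:**
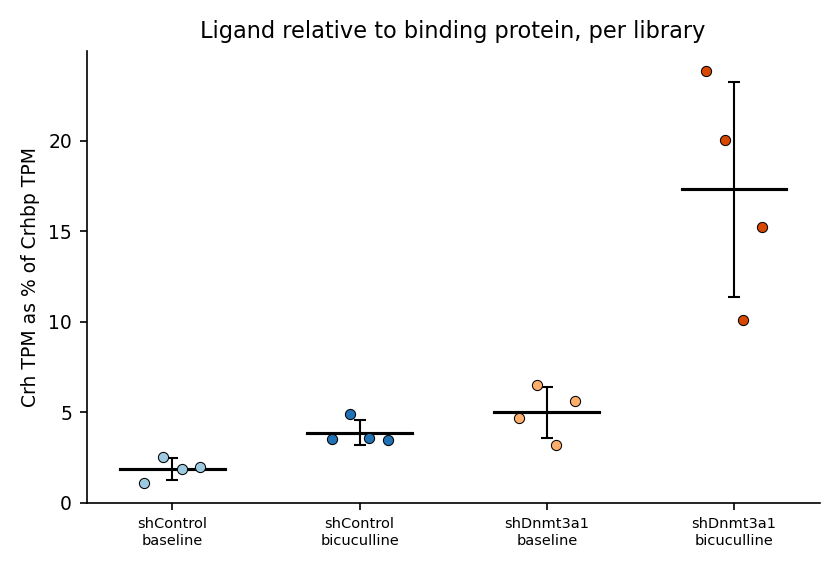
Crh TPM as a percentage of Crhbp TPM (y axis, from 0) in each library, with group means and SDs (n = 4). The shDnmt3a1 bicuculline libraries lie between 10.1% and 23.8%, and the other 12 between 1.11% and 6.51%.

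Downstream of the receptors, few genes of cyclic AMP signalling were called. Of 34 genes for G protein subunits, adenylyl cyclases, protein kinase A, arrestins, receptor kinases and phosphodiesterases, 3 rose and 1 fell with bicuculline in shControl, against 21.9% called over all genes, and the median log2 change was 0.07 (-0.09 with library sizes alone). Prkar2a, a regulatory subunit of protein kinase A, rose by 1.56. The calcium-stimulated cyclase gene Adcy8 rose by 1.32 and the receptor kinase gene Grk5 by 1.13. The cyclase gene Adcy6 fell by 0.57. In shDnmt3a1 the same 4 genes were called in the same directions and the phosphodiesterase gene Pde4d also rose, by 0.51, though not with library sizes alone (0.36). The median was -0.04.

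Between the shRNAs the cyclase gene Adcy3 was lower after knockdown, by -0.60 on the log2 scale in baseline (adjusted p = 4.34e-06) and -0.71 with bicuculline (adjusted p = 5.84e-07). Ramp2, a receptor activity-modifying protein, was lower by -0.55 and -0.93 (adjusted p = 0.0375 and 0.00156). Prkar2b, another regulatory subunit of protein kinase A, was higher by 0.55 and 0.52, but was not called with library sizes alone, at 0.47 and 0.45. Adcy7 was called lower with bicuculline, at -0.88 (adjusted p = 0.00916). In all, 3 of 34 genes were called in baseline and 4 of 34 with bicuculline, against 5.83% and 5.89% of all tested genes, with medians of 0.11 and 0.06 (0.03 and -0.01 with library sizes alone).

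Genes known to act on Crh transcription or in glucocorticoid signalling were examined as a list of 22 tested genes. With bicuculline 11 rose and 3 fell in shControl, and 10 rose and 4 fell in shDnmt3a1, with medians of 0.40 and 0.42, where 21.9% and 25.8% of all tested genes were called. Fosb rose from 6.49 ± 1.66 to 996 ± 164 CPM in shControl, and Fos from 10.3 ± 3.01 to 872 ± 139. Egr1 went from 43.9 ± 11.6 to 1075 ± 317 CPM and Nr4a1, an orphan nuclear receptor gene, from 24.6 ± 5.70 to 574 ± 91.5. In shDnmt3a1 Fosb, Fos and Nr4a1 rose by 7.04, 6.19 and 4.95 on the log2 scale. Sim1, a factor of CRH neurons of the hypothalamus, was called as well, but from a baseline under 3 counts per library to 0.380 ± 0.330 CPM in shControl and 0.403 ± 0.158 in shDnmt3a1, so no fold is given.

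The genes that fell in shControl were Nr3c2 (-0.88) and Nr3c1 (-0.60), which encode the mineralocorticoid and glucocorticoid receptors, and Creb1 (-0.87). In shDnmt3a1 Creb1 (-0.91), Nr3c2 (-0.89), the CREB coactivator gene Crtc1 (-0.61) and Ncoa1 (-0.52) were called lower, Ncoa1 not with DESeq2's size factors (-0.49). Between the shRNAs 3 of the 22 genes were called in baseline and 2 with bicuculline, against 5.83% and 5.89% of all tested genes. Crem, a CREB-related factor, was lower after knockdown in baseline, by -0.62 (adjusted p = 0.0346), and Fosb with bicuculline, by -0.61 (adjusted p = 0.0156). Fos was higher in baseline, by 0.58 (adjusted p = 0.0437), but not called with library sizes alone.

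Of 12 genes that turn a precursor into a released peptide, 3 rose with bicuculline in each kind of culture, near the 21.9% and 25.8% of all tested genes called there. Between the shRNAs no gene of the list was called, apart from 1 lower in baseline with library sizes alone. Pcsk1, a prohormone convertase, went from 66.9 ± 17.2 to 508 ± 135 CPM in shControl (log2 2.93) and from 47.0 ± 7.42 to 525 ± 116 in shDnmt3a1 (3.48). Scg2, a granin of dense-core vesicles, rose by 2.30 and 2.57, and Pam, which amidates peptides including CRH, rose by 1.37 and 1.60. The medians of the list were 0.29 and 0.28 with bicuculline, and -0.05 and -0.02 between the shRNAs. Of 12 other genes of the stress axis 6 were tested. Mc4r, a melanocortin receptor gene, rose with bicuculline by 0.65 and 0.67 and was higher after knockdown by 0.69 and 0.72 (adjusted p = 0.00914 and 0.00537), and with library sizes alone the first of these, in shControl, was not called (0.49). Avpr1a, a vasopressin receptor gene, fell by 0.75 and 0.56 and Trhr, the thyrotropin-releasing hormone receptor gene, by 0.58 and 0.59.

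The interneuron genes among which Crhbp is counted by its tissue pattern were examined as a further list of 24, all tested. With bicuculline 7 rose in shControl and 8 in shDnmt3a1, and none was called lower, against 21.9% and 25.8% of all tested genes called in either direction, with medians of 0.26 and 0.31. The opioid precursor gene Penk rose by 3.82 and 4.18, the cortistatin gene Cort by 1.05 and 1.64, the tachykinin gene Tac1 by 0.93 and 1.34 and the nuclear receptor gene Nr2f2 by 0.92 and 1.17. After knockdown 5 were lower in baseline (7 with library sizes alone) and 2 with bicuculline, against 5.83% and 5.89% of all genes, with medians of -0.09 and -0.08. Cort was lower by -1.52 and -0.93 (adjusted p = 3.37e-07 and 2.99e-05), at 12.8 ± 0.730 against 4.46 ± 0.788 CPM in baseline. The neuropeptide Y gene Npy was lower by -1.05 and -0.78 (adjusted p = 5.49e-04 and 0.00498). Tac1 (-0.63), Pvalb (-0.55) and Sst (-0.52) were lower in baseline (adjusted p = 0.00301, 0.0304 and 0.00921). Sst, the somatostatin gene, had 395 ± 31.8 CPM in shControl baseline and 274 ± 49.7 in shDnmt3a1 baseline.

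**Figure D4:**
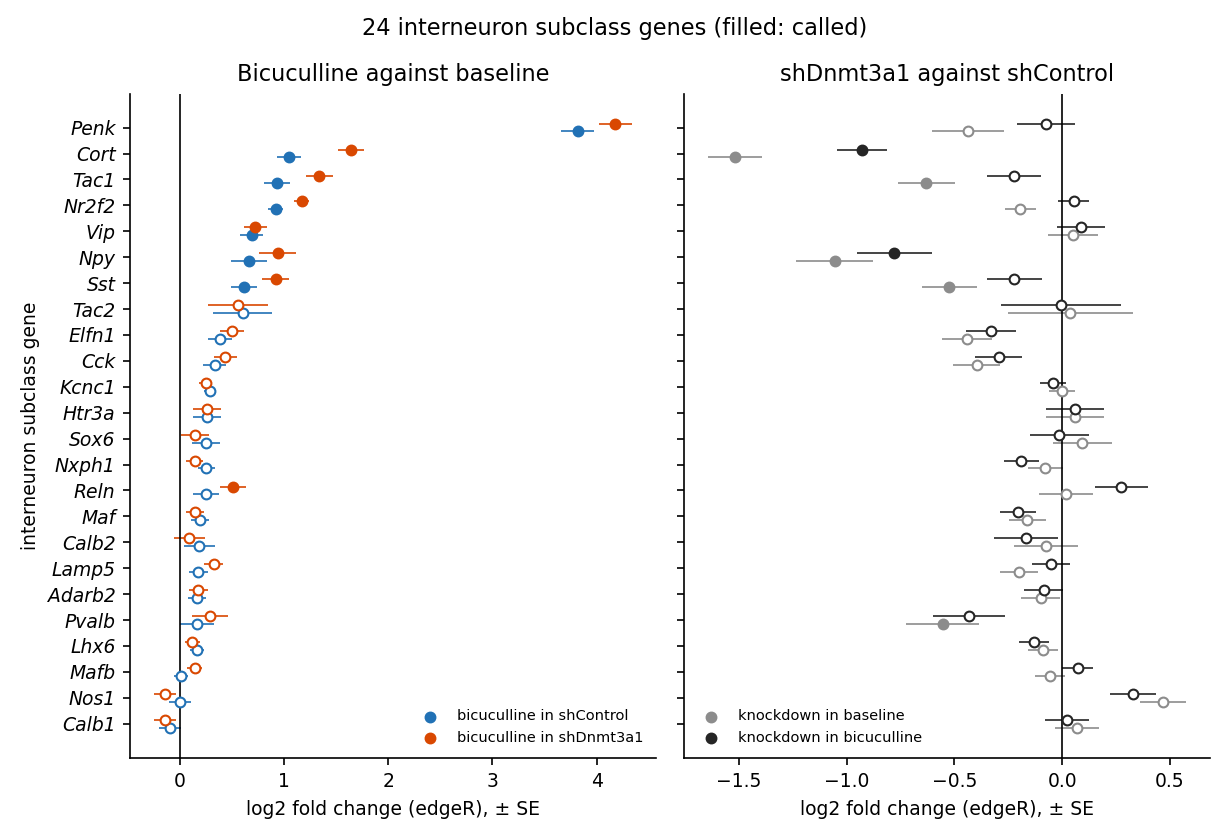
Log2 fold changes (edgeR, x axes, ± SE) of 24 interneuron subclass genes (y axis), with bicuculline against baseline on the left and shDnmt3a1 against shControl on the right. Filled points were called. No gene was called lower with bicuculline, and the genes called between the shRNAs, Cort, Npy, Tac1, Pvalb and Sst, were all lower after knockdown.

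Genes most like Crh and Crhbp over the 16 libraries were found by the Pearson correlation of TMM log2 CPM with each of 13879 genes of at least 1 CPM. The libraries share the 4 groups, so a high value reflects above all a common group pattern, and the values are a description. Crhbp was most like Cort (r = 0.963), Pthlh (0.963), Spag4 (0.963), Rgs8 (0.955) and Mtdh (0.955), and 4 of these 5 stayed among the first 5 on log2(TPM + 0.1). Pthlh encodes parathyroid hormone-related peptide and Rgs8 a regulator of G protein signalling. Crh was most like Ext1 (0.973), Bmpr1a (0.973), Ptch1 (0.973), Pcna (0.972) and Zfp516 (0.971), but none of these stayed among the first 5 on the TPM scale.

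With each group's mean subtracted, which leaves the differences among replicates, Crhbp was most like the acetylcholinesterase gene Ache (r = 0.904), Elovl4 (0.875), Sv2b (0.860), Ghitm (0.850) and Zfp365 (0.850), of which 1 stayed on the TPM scale. Crh was most like Ccn1 (0.773), Sox4 (0.757), 2700099C18Rik (0.741), A930024E05Rik (0.737) and Gm43254 (0.733), of which 3 stayed. Among the members, Crh and Crhbp had r = 0.47 over the 16 libraries and r = -0.06 within groups. Crhbp and Crhr1 had r = 0.17 over all libraries and 0.34 within groups.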

How the data were processed

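RNA sequencing (BGISeq, paired ends) of 16 libraries gave 2 deposited tables each. Per the labels and the study's methods the authors trimmed reads with Trim Galore 0.6.4 and quantified them with kallisto (0.4.6 in the submitters' notes) on GRCm38.p6, and deposited estimated counts per gene, not scaled, and TPM, scaled for transcript length and library total. Counting by strand is not given in the sources used here, and 41 of 76 other named genes overlap an annotated gene, whose reads cannot then be told apart from theirs.

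Estimated counts were rounded and tested in edgeR 4.0.16 (R 4.3.3) with TMM, its expression filter and 1 quasi-likelihood fit of the 4 groups, adjusted by Benjamini-Hochberg over 17222 genes. A call needed an adjusted p below 0.05 plus a log2 change of more than 0.5 in size, and the interaction the adjusted p alone. The ratio of Crh to Crhbp was tested by exact permutation. The fit was tested on simulated data. Named genes are the members, Dnmt3a, the urocortins, at most 4 called genes per direction in each list and the 5 most like Crh or Crhbp. Some genes that the rule covers are not reported here. Beyond the rule, Slc17a7, Gad1, Gfap, Aqp4, Mbp, Col1a1, Csf1r, Sox10, Cldn5 and Cx3cr1 are named as defining markers. The members and lists were chosen with earlier results of these data known. TPM were used for levels between genes, with 0.1 added on log scales. Unless a replicate block or pairs are stated, p-values measure the spread between libraries of a group and do not use the replicate numbers.

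Replicate numbers 1 to 4 are shared between groups. After subtracting group means, same-numbered libraries correlated at 0.142 to 0.221 between states in shControl and 0.204 to 0.355 between shRNAs in baseline. They were taken as pairs there. Libraries with different numbers were not correlated as a reference, so these values do not show what a number marks. In the other 2 comparisons 1 number lay below 0.1 (0.0631 and 0.0667), so pairs between states in shDnmt3a1 go by number alone. The pairing comes from these correlations only. Alternatives were DESeq2 1.42.0, voom with limma 3.58.1, limma on log2(TPM + 0.1) and log2(TPM + 1), other size factors, other filters and thresholds, the 2 groups compared alone, the replicate block, and each library left out in turn. Gene models came from GENCODE M21 and promoters from RefSeq.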

Additional observations from a re-analysis of the deposited data

Results flagged for a closer look

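Among groups of 4 libraries a few values stood far from the other 3 by Dixon's ratio. That ratio is the gap to the nearest library over the whole range, and its limit flags about 1 in 20 groups by chance. In all 36 such groups of values were examined, with CPM and TPM of the same libraries among them. Crh in shControl baseline was low in replicate 1 on the TPM scale (ratio 0.907), with 12 counts against 21 to 23. Crhbp in shControl baseline was low in replicate 2 on the CPM scale (0.848), at 39.4 CPM. In shDnmt3a1 baseline Crhbp was high in replicate 3 on the TPM scale (0.887), at 39.7 TPM against 17.5 to 19.98. The log2 ratio of Crh to Crhbp in shControl with bicuculline was high in replicate 2 (0.942). Each of the Crh and Crhbp flags held on 1 of the 2 scales.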

How the results depend on the processing

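The bicuculline calls of Crh and Crhbp held in all 26 alternatives of the fit, in both kinds of culture. With Crhbp relative to the GABAergic markers, the differences of 0.29 and 0.84 did not pass the exact permutation test, a different test from the fit. Crhr1 with bicuculline in shDnmt3a1 was called in 2 alternatives (-0.51 and -0.54). Crhr2 with bicuculline changed sign on log2(TPM + 1) and log2(TPM + 0.1), to -0.058 and -0.11 in shControl and to -0.0062 and -0.018 in shDnmt3a1. The knockdown difference of Crh with bicuculline was 1.03 on log2(TPM + 1). Library sizes alone moved the median log2 change of all genes to -0.15 and -0.16 with bicuculline, and to -0.07 and -0.08 after knockdown. The cause was not tested.

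With the replicate block no member's call changed: Crhbp in shControl was 0.77 (adjusted p = 1.21e-05) and Crhr1 in shDnmt3a1 -0.35 (adjusted p = 0.00446, under the fold threshold). The interaction of Crh had an adjusted p of 0.207. For the ratio, exact sign-flip permutation over the 4 pairs gave rises of 1.01 and 1.67 with p = 0.125 each, the smallest that 4 pairs allow.

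Genes called numbered 7131, 7919, 2809 and 3046 without a fold threshold and 1378, 1681, 175 and 185 at a threshold of 1, for bicuculline in shControl and shDnmt3a1 and knockdown in baseline and with bicuculline. The interaction called 18 genes in DESeq2, 3 without the filter and 3 with the block. Leaving out 1 library changed no call of a member. The Crhr2 interaction, at 0.02, turned sign in 8 of 16 such fits, between -0.095 and 0.14.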

Other observations

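Markers of other cell types give the setting of the CRH values. Of 7 astrocyte markers S100b was the only one called after knockdown, higher by 0.82 in baseline and 0.84 with bicuculline (edgeR adjusted p = 0.0210 and 0.0170), with list medians of 0.41 and 0.43 and a summed level of 674 to 869 CPM in shControl baseline and 686 to 998 in shDnmt3a1 baseline. The microglial gene Csf1r was lower by -0.66 and -0.75 (adjusted p = 0.0400 and 0.0259), among 3 tested markers whose list summed to at most 5.23 CPM. Pdgfrb, a pericyte gene, was higher after knockdown in baseline by 0.75 (adjusted p = 0.00971). Among neuronal markers Tubb3 was higher by 0.51 in baseline, not so with library sizes alone (0.42), and no excitatory marker was called between the shRNAs.

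With bicuculline the excitatory marker Slc17a6 rose by 1.54 in shControl and 1.53 in shDnmt3a1, and Neurod6 fell by 1.29 and 1.14. Nefl rose by 1.25 and 1.39 and Tubb3 fell by 0.77 and 1.12. Nhlh2, of the Cajal-Retzius list, rose by 1.01 in shDnmt3a1, Mog fell by 0.83 and 0.79, and Col1a2 rose by 0.55 and 0.56, not so with library sizes alone. Pdgfrb rose by 0.56 in shControl, also not so with library sizes alone. None of the 3 tested proliferation markers was called in any comparison with TMM. With library sizes alone 1 was called lower with bicuculline in shControl, and 1 was called lower after knockdown with bicuculline. The part of these markers in the Crh and Crhbp values was not tested.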
